A study of Glycine max with 16 samples.

Results

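Dried leaves of the soybean (Glycine max) lines A004A and A005B, in which the gene Glyma.10G011300 was abundant, were compared with dried leaves of the lines null (B001A) and B010C, in which it was scarce. The comparison takes up 8 of the 16 samples of the study. A004A, A005B and B010C are transgenic lines made to over-express the transcription factor GmWRKY54, and the null line is their control. All 4 lines entered as 2-week-old seedlings, raised in soil in a sunlit greenhouse and then left in air for 6 h before the trifoliate leaves were taken. The promoter of the transgene, the number of plants behind a sample and the genotype the lines were made in were not stated in the labels. The deposited table gives a single value per gene for every combination of line and treatment, although 2 samples are listed for each, so each side of the comparison had 2 columns, 1 per line. The watered leaves of the same 4 lines, in a further 4 columns, served only to show where a gene stood before drying.

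WRKY proteins are plant transcription factors that bind the W-box, a short DNA element in the promoters of many stress and defence genes, and they can raise or lower the genes they bind. Many of them respond to water loss and act in abscisic acid signalling, the hormone pathway that closes stomata and turns on protective genes in a drying leaf. An over-expression line carries extra copies of such a gene under an added promoter, and independent lines often differ in how much of it they make.

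The lines were chosen by the measured level of Glyma.10G011300, which was taken as the identifier of GmWRKY54, although the files do not pair identifiers with gene names. In dried leaves it stood at 119 RPKM in A004A and 238 RPKM in A005B, against 11.7 RPKM in null and 18.0 RPKM in B010C. RPKM are reads per kilobase of gene, scaled to the mapped reads of a library. The lowest value of the high lines (A004A) and the highest of the low lines (B010C) therefore lay well apart, and B010C, although labelled as a transgenic line, stood near null. In watered leaves the values were 51.1 RPKM in A004A and 73.0 RPKM in A005B, against 11.5 RPKM in null and 9.05 RPKM in B010C. Because this gene defined the sides, it was given no test and was left out of every count that follows.

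Of 56044 genes in the table, those with at least 1 RPKM in 2 of the 4 dried columns were kept, which left 30186 besides Glyma.10G011300. The sum of RPKM over all genes was 636011 in dried A004A and 698632 in dried A005B, against 785735 in dried null and 818267 in dried B010C, so both high lines had the lower sums. Between 19.96% and 22.6% of all genes were listed at 0 in a dried column, and the number of reads behind a value is unknown. Values were used as log2(RPKM + 1), a scale that understates the fold of genes with low values. Because the identifiers carry no names, leaf markers could not be looked up and genes are given by identifier, whose first digits are the chromosome number. In whole leaves, fewer cells of a type and less RNA per cell cannot be told apart.

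The 2 high lines shared a set of genes that set them apart from both low lines after drying. In limma, 329 genes were higher in the dried high lines than in the dried low lines (1.09% of those tested) and 299 were lower (0.991%), at a Benjamini-Hochberg adjusted p under 0.05. The sides overlapped in none of these 628 genes (2.08%), but they also lay apart without overlap in 17.9% of all tested genes upward and 32.7% downward. Of the called genes, 165 of the higher ones had under 1 RPKM in both low lines and 40 of the lower ones under 1 RPKM in both high lines, so they passed the filter only through the side where they were high and had to differ. The spread in this test is that between the 2 lines of a side, with 2 residual degrees of freedom per gene. Since the sides were drawn with values of these columns in view, the p-values describe how far these 4 columns separated and not how other lines would behave. In 27 of the 329 higher and 8 of the 299 lower genes, out of 30186 tested, the sides differed by at least 3 on the log2 scale. How many of these passed the filter through 1 side only was not counted, so the unequal numbers are a description. The calls depended on the filter, since without any filter on low values limma called 0 of 47723 genes, with 7508 at an unadjusted p under 0.05 against 5608 of the filtered genes. The split depended on scaling, with 338 higher and 190 lower genes once the columns were scaled by median-of-ratios factors and 327 and 143 once they were quantile normalized. It also depended on single lines. More genes were called lower than higher without A005B, null or B010C, and more higher than lower without A004A. Each such fit had a single column on 1 side.

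A count that needs no estimate of spread was set beside the test. In 279 genes both dried high lines stood at least 2-fold above both low lines (0.924% of genes tested), and in 236 both stood at least 2-fold below (0.782%). This limit was set on RPKM + 1, so genes at low values need a wider fold in RPKM to reach it. With 0.1 added in place of 1, the counts were 571 and 413. Limma called 274 of the 279 and 217 of the 236. Both counts draw on the same 4 dried columns, so neither lends the other support. Of the 279, 141 passed the filter through the high lines only, and of the 236, 35 through the low lines only. The limit is a line through a continuous range: Glyma.03G194200 lay just inside it, at 3.12 RPKM in A004A and 3.95 RPKM in A005B, against 0.657 RPKM in null and 1.05 RPKM in B010C. Glyma.19G035800 lay just outside, at 3.11 RPKM in A004A and 3.49 RPKM in A005B, against 1.06 RPKM in null and 0.882 RPKM in B010C. On the lower side, Glyma.02G298500 lay just inside, at 6.96 RPKM in A004A and 8.93 RPKM in A005B, against 18.9 RPKM in both null and B010C. Without B010C the counts were 605 and 835 genes, and without A005B 354 and 941. With 3 columns in place of 4 the condition is easier to meet.

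**Figure D1:**
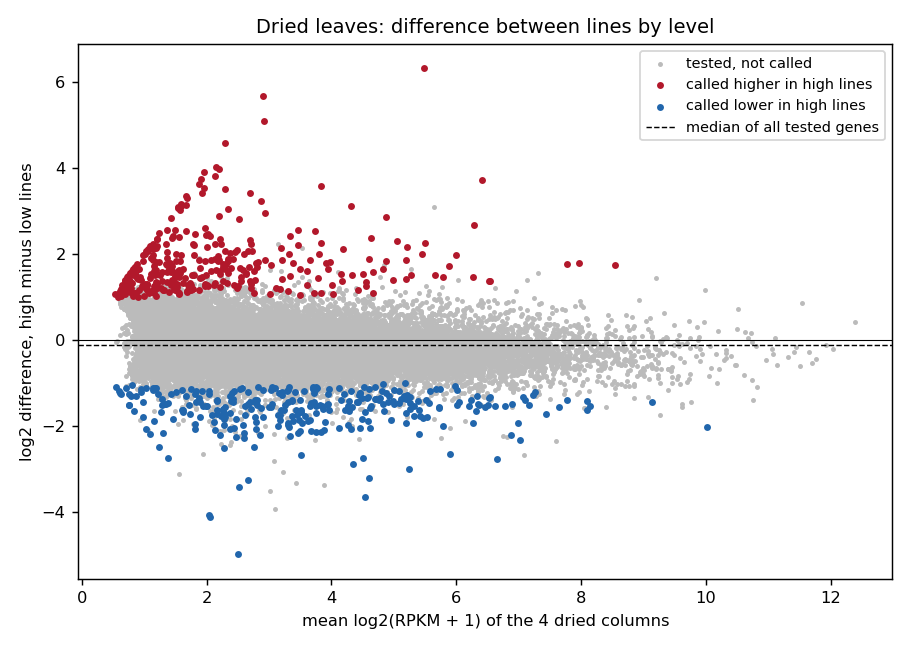
Difference between dried high and dried low lines (y axis, log2 scale) against the mean level over the 4 dried columns (x axis, log2(RPKM + 1)), 1 point per tested gene, with limma calls in colour and the median of all tested genes (-0.13) as a dashed line. The 329 higher calls lie mostly at low levels, and the 299 lower calls reach further to the right.

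Of the 12 genes with the widest gap above the low lines, 10 had under 1 RPKM in both dried null and dried B010C. Those 10 passed the filter through the high lines alone, so their values are a description and no p is given for them. Glyma.09G278000 stood at 282 RPKM in A004A and 570 RPKM in A005B, against 5.28 RPKM in null and 3.04 RPKM in B010C. The mean of the high lines was 103 times that of the low lines, a log2 difference of 6.32 ± 0.36 (SE, limma, adjusted p = 0.000397). Glyma.10G043100 stood at 40.6 RPKM in A004A and 67.5 RPKM in A005B, against 0.107 RPKM in null and a listed 0 in B010C. Both high lines were far above both low lines in each of these genes, with A005B the higher.

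Glyma.13G130600 had 34.5 RPKM in A004A and 54.2 RPKM in A005B, against 0.433 RPKM in null and 0.170 RPKM in B010C, a log2 difference of 5.10. Glyma.10G207000 had 21.9 RPKM in A004A and 23.9 RPKM in A005B, against a listed 0 in both null and B010C. Glyma.13G258100 had 10.6 RPKM in A004A and 18.2 RPKM in A005B, against a listed 0 in both low lines. An exact 0 in a table of this kind can be a failed estimate, so no fold is given for the last pair of genes.

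The lines of each side lay close together in a further 3 genes. Glyma.03G170900 stood at 43.8 RPKM in A004A and 53.4 RPKM in A005B, against 3.10 RPKM in null and 3.20 RPKM in B010C, with a mean 15.4 times as high in the high lines (log2 difference 3.57 ± 0.21 SE, adjusted p = 0.000397). Glyma.03G035600 stood at 15.1 RPKM in A004A and 19.7 RPKM in A005B, against 0.227 RPKM in null and 0.106 RPKM in B010C (log2 difference 3.97). Glyma.12G193400 stood at 12.3 RPKM in A004A and 12.1 RPKM in A005B, against 0.148 RPKM in null and 0.128 RPKM in B010C (log2 difference 3.53). A005B was above A004A in the first pair of these genes and just below it in Glyma.12G193400.

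Glyma.02G141900 and its near neighbour Glyma.02G142100 had the same shape. Glyma.02G141900 stood at 15.9 RPKM in A004A and 15.1 RPKM in A005B, against 0.284 RPKM in null and 0.0738 RPKM in B010C. Glyma.02G142100 stood at 10.8 RPKM in A004A and 12.1 RPKM in A005B, against 0.252 RPKM in null and 0.0855 RPKM in B010C. Reads from near-identical neighbouring copies cannot be assigned with certainty, and whether these genes are such copies is not given in the files. The remaining named genes were Glyma.11G153300, at 11.0 RPKM in A004A and 26.03 RPKM in A005B, against 0.141 RPKM in null and 0.0680 RPKM in B010C, and Glyma.11G064800, at 12.8 RPKM in A004A and 18.7 RPKM in A005B, against 0.464 RPKM in null and 0.429 RPKM in B010C. The 2 named genes that did not owe their place in the test to the high lines, Glyma.09G278000 and Glyma.03G170900, were no longer called when all 8 columns entered the fit, at limma adjusted p = 0.0684 and 0.0529, or without the filter, at 0.0643 and 0.0585.

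**Figure D2:**
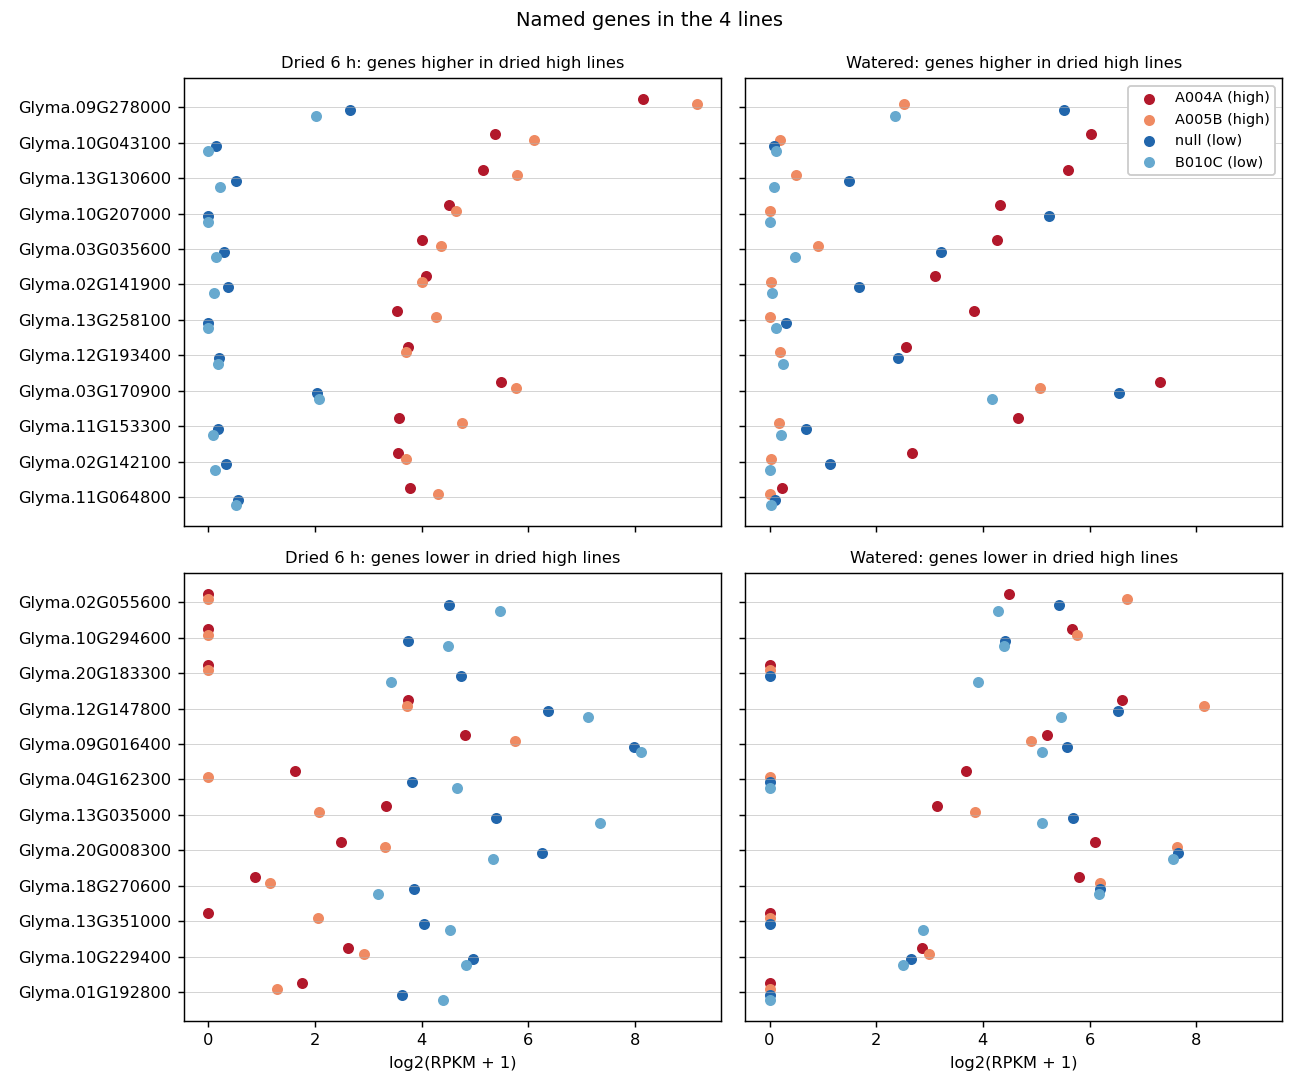
Level of the 12 genes with the widest gap in each direction (rows), as log2(RPKM + 1) on the x axis, 1 point per line, in dried leaves (left) and watered leaves (right). In dried leaves the points of A004A and A005B lie on one side of those of null and B010C in every row, by the choice of genes. In watered leaves 8 of the 12 upper genes stand at least 2-fold higher in A004A and null than in A005B and B010C.

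Of the 12 genes with the widest gap below the low lines, 3 were listed at 0 in both dried high lines, as were 17 of the 236 lower genes. Of all 30186 tested genes, 17 were at 0 in both, and the filter and the 2-fold limit put every such gene among the 236. The 3 named ones passed the filter through the low lines alone and are given as a description, with no p. Glyma.02G055600 was listed at 0 in A004A and A005B, against 21.8 RPKM in null and 43.3 RPKM in B010C. Glyma.10G294600 was listed at 0 in both high lines, against 12.4 RPKM in null and 21.5 RPKM in B010C. Glyma.20G183300 was listed at 0 in both high lines, against 25.7 RPKM in null and 9.75 RPKM in B010C. The first pair of these genes had 18.4 RPKM or more in every watered column, and Glyma.20G183300 was listed at 0 in watered A004A, A005B and null and stood at 14.0 RPKM in watered B010C.

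The other 9 genes kept a measurable level in at least 1 high line. All 9 were called by limma as deposited and none without the filter, at adjusted p between 0.0925 and 0.164. Glyma.09G016400 stood at 27.1 RPKM in A004A and 52.5 RPKM in A005B, against 253 RPKM in null and 274 RPKM in B010C, a mean 6.61 times as high in the low lines (log2 difference -2.77 ± 0.31 SE, limma, adjusted p = 0.00690). In watered leaves Glyma.09G016400 lay between 29.1 and 46.7 RPKM in all 4 lines. Its dried level was less than 2-fold from the watered one in both high lines, lower in A004A and higher in A005B. In both low lines the dried level was far above the watered one. Glyma.12G147800 stood at 12.4 RPKM in A004A and 12.2 RPKM in A005B, against 81.7 RPKM in null and 137 RPKM in B010C (-3.01 ± 0.27 SE, adjusted p = 0.00254).

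Glyma.10G229400 shared with Glyma.09G016400 a change under 2-fold in both high lines and a rise in both low lines, at a lower level. It had 5.15 RPKM in A004A and 6.54 RPKM in A005B, against 30.3 RPKM in null and 27.5 RPKM in B010C (-2.13 ± 0.22 SE, adjusted p = 0.00450), and between 4.64 and 6.98 RPKM in the 4 watered columns. Glyma.18G270600 went the other way on drying, standing at 55.1 RPKM or more in every watered column and at 0.831 RPKM in dried A004A and 1.24 RPKM in dried A005B, against 13.6 RPKM in dried null and 8.08 RPKM in dried B010C (-2.51 ± 0.28 SE, adjusted p = 0.00652). Its dried values lay below the watered ones in all 4 lines, and further below in the high lines.

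Glyma.20G008300 shared that shape, with 4.59 RPKM in A004A and 8.90 RPKM in A005B, against 75.4 RPKM in null and 39.1 RPKM in B010C (adjusted p = 0.00959), and 67.4 RPKM or more when watered. Glyma.01G192800 was listed at 0 in all 4 watered columns and stood at 2.36 RPKM in dried A004A and 1.45 RPKM in dried A005B, against 11.4 RPKM in dried null and 19.97 RPKM in dried B010C (adjusted p = 0.00859). For Glyma.13G035000, at 9.08 RPKM in A004A and 3.23 RPKM in A005B, against 41.1 RPKM in null and 161 RPKM in B010C, the lines of each side differed widely from one another (-3.66 ± 0.60 SE, adjusted p = 0.0236). Glyma.13G035000, Glyma.04G162300 and Glyma.13G351000 were no longer called with median-of-ratios factors, at adjusted p = 0.0729, 0.0536 and 0.0629. Glyma.04G162300 stood at 2.10 RPKM in A004A and a listed 0 in A005B, against 13.0 RPKM in null and 24.2 RPKM in B010C, and Glyma.13G351000 at a listed 0 in A004A and 3.16 RPKM in A005B, against 15.6 RPKM in null and 22.2 RPKM in B010C.

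As a description, the side of the comparison that a gene fell on went with its abundance. The 279 genes at least 2-fold higher in the high lines had a median mean level of 3.88 RPKM over the 4 dried columns and the 236 lower genes one of 12.4 RPKM, where all tested genes had 6.75 RPKM. Among genes with a mean under 5 RPKM, 1.36% were 2-fold higher and 0.529% lower. Among those at 100 RPKM and over, 0.591% were 2-fold higher and 2.28% lower, or 7 and 27 of 1184 genes. The median log2 difference of all tested genes was -0.13, near 0 (-0.04) under 5 RPKM and -0.34 at 100 RPKM and over, so the abundant genes as a whole lay lower in the high lines with values as deposited. The filter bears on the low end, since 715 tested genes passed it through the high lines only and 425 through the low lines only. Of the 279 higher genes 141 had passed in this way, and of the 236 lower genes 35. They were not taken out, so no conclusion is drawn from the shares under 5 RPKM or the median levels. With median-of-ratios factors the median of all tested genes moved to -0.05, and with quantile normalized columns to 0.00427. Of the 279 higher genes 269 stayed at least 2-fold apart with median-of-ratios factors and 270 with quantile normalized columns, and of the 236 lower genes 187 and 165 did.

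Several very abundant transcripts were among the genes at least 2-fold apart. The 8 with the highest level in any dried column were taken in each direction, after their values had been seen, and limma called 7 of the higher and 4 of the lower ones. Besides Glyma.09G278000, the following were among them. Glyma.13G333100 stood at 550 RPKM in A004A and 836 RPKM in A005B, against 169 RPKM in null and 243 RPKM in B010C (log2 difference 1.74 ± 0.32 SE, limma, adjusted p = 0.0364), and between 33.0 and 43.5 RPKM in watered leaves. Glyma.13G270100 stood at 383 RPKM in A004A and 426 RPKM in A005B, against 117 RPKM in null and 118 RPKM in B010C (1.77 ± 0.24 SE, adjusted p = 0.0121), and between 10.8 and 16.7 RPKM in watered leaves. Both were far above their watered level in every dried line, and furthest in the high lines.

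Glyma.15G239200 stood at 246 RPKM in A004A and 389 RPKM in A005B, against 26.6 RPKM in null and 18.8 RPKM in B010C (3.73 ± 0.29 SE, adjusted p = 0.00130). Glyma.10G214500 stood at 151 RPKM in A004A and 253 RPKM in A005B, against 32.3 RPKM in null and 27.6 RPKM in B010C (2.67 ± 0.28 SE, adjusted p = 0.00528). Glyma.18G210900 stood at 373 RPKM in A004A and 574 RPKM in A005B, against 138 RPKM in null and 130.2 RPKM in B010C (1.78 ± 0.29 SE, adjusted p = 0.0223). Glyma.15G239200 and Glyma.10G214500 were also high in watered A004A and watered null, at 187 and 173 RPKM for Glyma.15G239200 and at 304 and 162 RPKM for Glyma.10G214500. Glyma.14G051900, at 108 RPKM in A004A and 196 RPKM in A005B, against 38.6 RPKM in null and 6.48 RPKM in B010C, did not pass (adjusted p = 0.0540).

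Of the abundant lowered genes, Glyma.08G339500 stood at 387 RPKM in A004A and 681 RPKM in A005B, against 2265 RPKM in null and 1918 RPKM in B010C (-2.02 ± 0.37 SE, adjusted p = 0.0355). In watered leaves it had 1412 RPKM in A004A and 1637 RPKM in A005B, against 2788 RPKM in null and 2088 RPKM in B010C, so the order of the sides was the same and the distance smaller. Glyma.15G062500 stood at 331 RPKM in A004A and 347 RPKM in A005B, against 921 RPKM in null and 933 RPKM in B010C (-1.45 ± 0.28 SE, adjusted p = 0.0395). The adjoining Glyma.15G062400, at 529 RPKM in A004A and 515 RPKM in A005B, against 1170 RPKM in null and 1752 RPKM in B010C, did not pass (adjusted p = 0.0652).

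A further 3 of the abundant lowered genes did not pass. Glyma.02G083600 stood at 58.2 RPKM in A004A and 48.3 RPKM in A005B, against 123 RPKM in null and 959 RPKM in B010C (adjusted p = 0.112). Glyma.15G236800 stood at 121 RPKM in A004A and 58.6 RPKM in A005B, against 246 RPKM in null and 769 RPKM in B010C (adjusted p = 0.0620). Glyma.07G243500 stood at 255 RPKM in A004A and 443 RPKM in A005B, against 888 RPKM in null and 1425 RPKM in B010C (adjusted p = 0.0586). In each of these 3 genes B010C was the highest line and null the next. Among the called ones, Glyma.15G049600 stood at 160 RPKM in A004A and 149 RPKM in A005B, against 575 RPKM in null and 405 RPKM in B010C (-1.64 ± 0.28 SE, adjusted p = 0.0262).

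The lines of a side lay closer to each other than to the lines of the other side once dried. Dried A004A and A005B were at least 2-fold apart in 514 genes, and dried null and B010C in 938. Between sides, 3633 genes were 2-fold apart for A004A and null, 2177 for A004A and B010C, 1996 for A005B and null and 1779 for A005B and B010C. The watered columns did not group in this way, since watered A004A and A005B were 2-fold apart in 913 genes, watered null and B010C in 376, and the 4 pairs between sides in 371 to 817. These are counts between single columns, with no replicate check and no test. Across tested genes, dried A004A and A005B correlated at Pearson r = 0.975 and dried null and B010C at 0.965, whereas pairs between sides lay between 0.929 and 0.951.

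**Figure D3:**
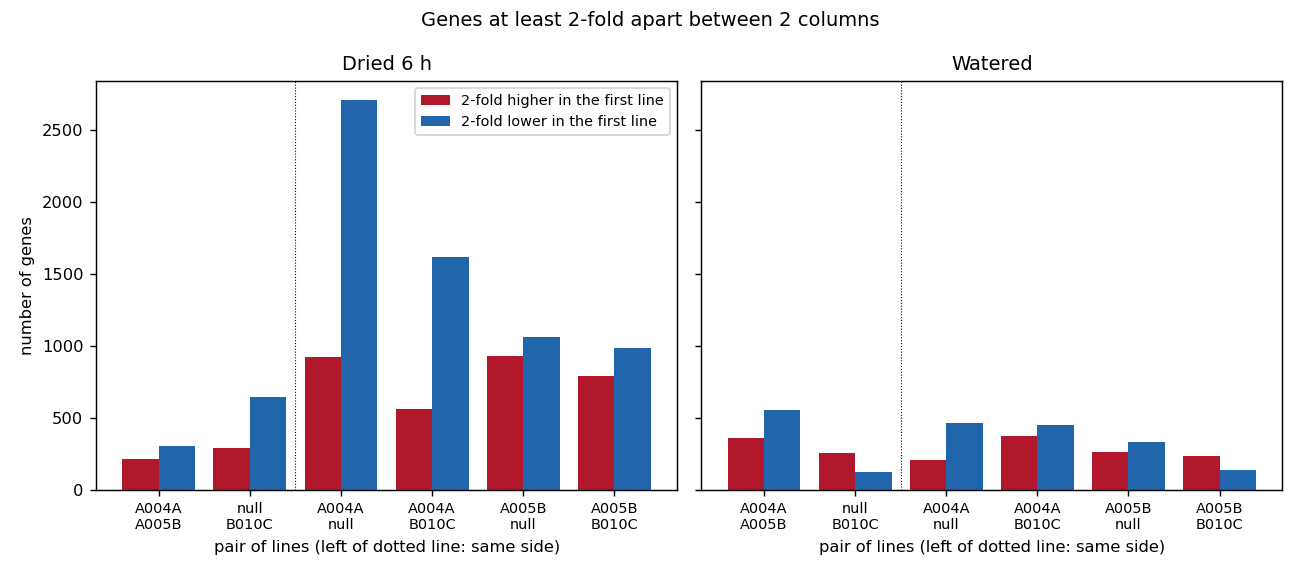
Number of genes at least 2-fold apart (y axis) for each pair of lines (x axis) in dried leaves (left) and watered leaves (right), with genes higher in the first line in red and lower in blue. Pairs of the same side stand left of the dotted line, and in dried leaves they differ in 514 and 938 genes, fewer than any pair between sides.

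Within the set of 279 higher genes, A005B stood above A004A in 211, or 75.6%, close to the 71.9% over all tested genes. The median log2 difference of A005B from A004A was 0.19 in these genes and 0.17 in all tested genes. A005B also had the higher level of Glyma.10G011300. In the 236 lower genes A005B stood above A004A in 175, or 74.2%, so in both sets the order of the 2 high lines followed that of the whole table.

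Before drying, few of these genes set both high lines apart. Of the 279 genes, 1 was at least 2-fold higher in both watered high lines than in both watered low lines, and of the 236 lower genes 1 was at least 2-fold lower, where 0.0398% and 0.0133% of all tested genes met these conditions. The first, named after its values were seen, was Glyma.01G082900, at 2.88 RPKM in A004A and 1.20 RPKM in A005B when dried and at 4.26 and 6.93 RPKM when watered, and listed at 0 in all 4 columns of null and B010C. The second was Glyma.13G035000, with 7.76 RPKM in watered A004A and 13.5 RPKM in watered A005B, against 50.7 RPKM in watered null and 33.3 RPKM in watered B010C. Across the 30186 genes, the dried and the watered log2 differences, which share lines but no column, correlated at r = 0.225. Genes are not independent replicates, and no test was attached to it.

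The watered difference (high minus low lines) was above 0 in 71.0% of the 279 genes, with a median of 0.16 on the log2 scale, and in 50.2% of all tested genes, with a median of 0.00112. The single lines did not share this. Watered A004A stood above watered B010C in 81.4% of the 279 genes, while watered A005B stood above watered null in 21.9%. Without A004A the watered difference was above 0 in 26.7% of the genes then at least 2-fold higher, and without B010C in 50.4%. In the 236 lower genes the watered difference was below 0 in 61.4%, against 49.5% of all tested genes. Over the genes then at least 2-fold lower, the share was 49.1% without A004A and 44.3% without null.

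In a group of genes the watered columns of A005B and null stood in the opposite order to the dried ones. In 39 of the 279 genes, or 14.0%, watered A004A and null stood at least 2-fold above watered A005B and B010C, a pattern that 0.255% of all tested genes had. The median level of these 39 genes in dried leaves was 12.3 RPKM in A004A and 15.1 RPKM in A005B, against 0.811 RPKM in null and 0.544 RPKM in B010C. In watered leaves it was 18.0 RPKM in A004A and 1.69 RPKM in A005B, against 10.2 RPKM in null and 1.25 RPKM in B010C. In the same watered columns Glyma.10G011300 stood at 73.0 RPKM in A005B and 11.5 RPKM in null. An exchange of the watered columns of A005B and null was not tested. No dried value depends on it, but the watered values and the changes on drying of A005B and null do.

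Of the 12 named higher genes, 8 were in this group, among them Glyma.09G278000, with 274 RPKM in watered A004A and 4.74 RPKM in watered A005B, against 45.0 RPKM in watered null and 4.10 RPKM in watered B010C. Outside this group, a further 3 of the 12 were at least 2-fold higher in watered A004A than in every other watered line. Again outside that pattern, so were 37 of the 279 genes (13.3%) and 0.282% of all tested genes. Genes with both watered high lines 2-fold above both watered low lines were counted apart as well. Members of the group could meet the condition too, as Glyma.09G278000 did, so these numbers are not totals. Among the 3, Glyma.10G043100 had 63.9 RPKM in watered A004A and at most 0.140 RPKM in the other watered columns. The last, Glyma.11G064800, stayed at or under 0.174 RPKM in every watered column, and 71 of the 279 genes (25.4%) were under 1 RPKM in all 4 watered columns, as were 7.59% of all tested genes. In none of the 12 did both watered high lines stand at least 2-fold above both watered low lines.

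**Figure D4:**
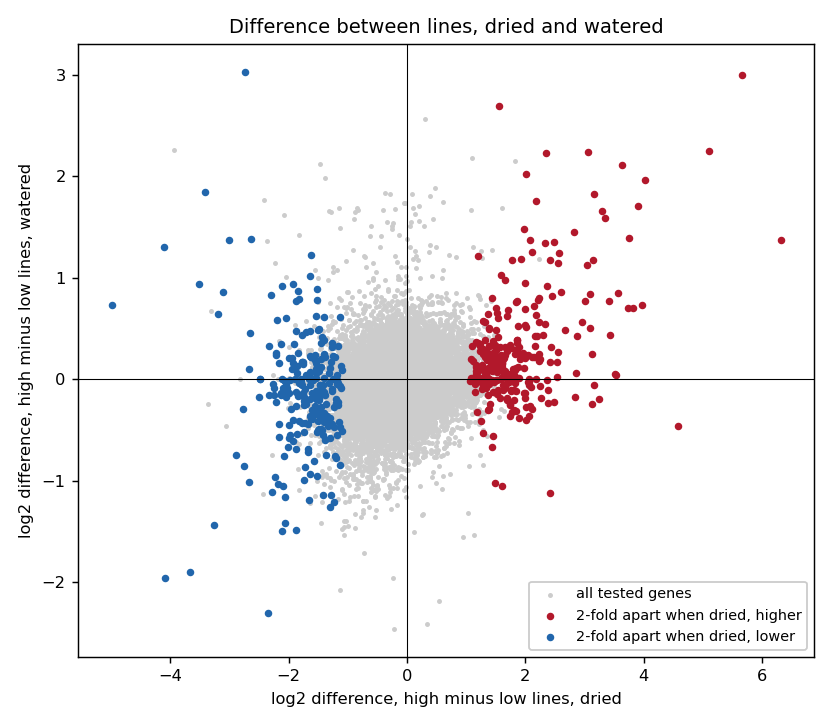
Log2 difference of the high minus the low lines in watered leaves (y axis) against that in dried leaves (x axis), 1 point per tested gene, with the 279 genes at least 2-fold higher in red and the 236 lower in blue. Most coloured points lie near 0 on the y axis, and red points lie above 0 more often (71.0%) than all tested genes (50.2%).

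Genes reached the dried difference from different watered levels. The changes on drying share the dried columns with that difference, so they are given as a description. Of the 279 higher genes, 73 were at least 2-fold above their watered level in both dried high lines and changed less than 2-fold in both low lines (26.2%, against 1.38% of all tested genes). Another 16 were at least 2-fold below their watered level in both low lines and changed less than 2-fold in both high lines (5.73%, against 0.374% of all tested genes). A further 30 were at least 2-fold above in all 4 lines, a share of 10.8% near the 12.7% of all tested genes. The median log2 change on drying was 0.75 in A004A and 1.93 in A005B, against -0.37 in null and 0.00 in B010C, where the medians of all tested genes lay between -0.12 and 0.06. The 2 high lines differed from one another in these changes. All changes given for A005B and null, here and for the lower genes, rest on the watered columns of these lines. An exchange of those columns was not tested.

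Of the 236 lower genes, 40 were at least 2-fold above their watered level in both low lines and changed less than 2-fold in both high lines (16.9%, against 0.934% of all tested genes). Glyma.09G016400 and Glyma.10G229400 were of this kind. In 33 genes the level was at least 2-fold below the watered one in both high lines and changed less than 2-fold in both low lines (14.0%, against 1.91% of all tested genes). In 26 it was at least 2-fold below in all 4 lines, a share of 11.0% near the 10.7% of all tested genes. The median log2 change was -0.42 in A004A and -0.09 in A005B, against 1.02 in null and 1.20 in B010C. In 2 of the lower genes, named after their values were seen, the lines moved in opposite directions. Glyma.02G125900 had 14.2 RPKM in A004A and 36.3 RPKM in A005B when dried, against 190 RPKM in null and 119 RPKM in B010C (limma, adjusted p = 0.0192), and between 54.6 and 85.8 RPKM in the 4 watered columns. Glyma.13G316800 had a listed 0 in A004A and 4.70 RPKM in A005B when dried, against 13.6 RPKM in null and 50.1 RPKM in B010C (adjusted p = 0.0614).

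**Figure D5:**
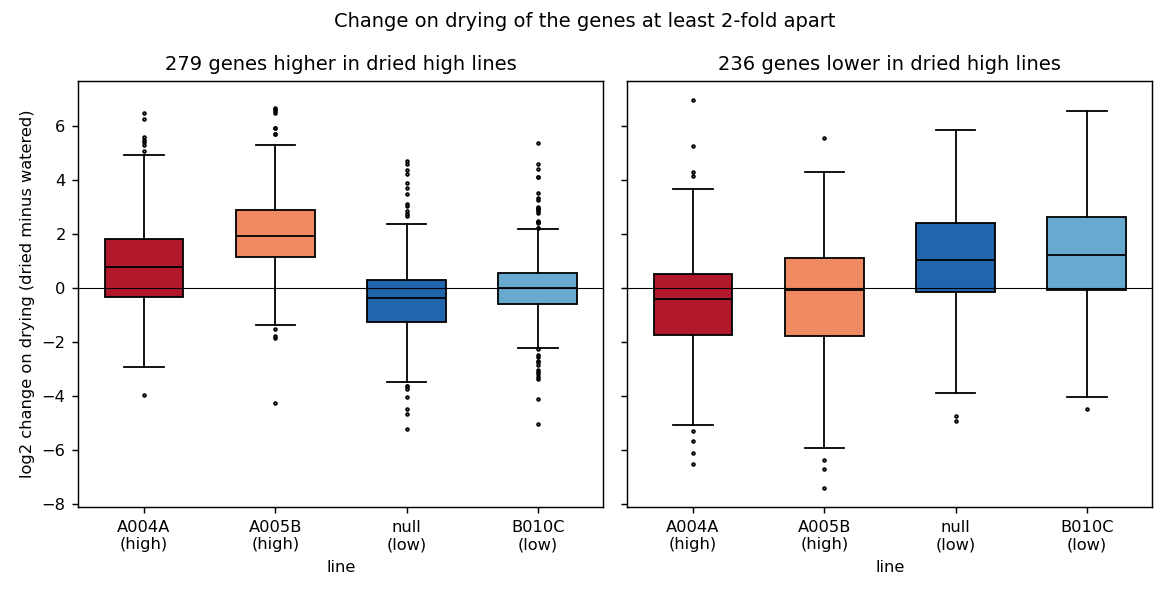
Change on drying (y axis, log2 of dried minus watered, each as log2(RPKM + 1)) by line (x axis) for the 279 genes at least 2-fold higher (left) and the 236 lower (right) in the dried high lines; boxes give the quartiles over genes, the line the median, whiskers 1.5 times the box height and points the genes beyond. Among higher genes the median is 1.93 in A005B and 0.75 in A004A, against -0.37 in null and 0.00 in B010C.

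The genes were spread over the genome, with some in runs. By the chromosome number in the identifier, the share of tested genes that were at least 2-fold higher lay between 0.712% and 1.23% on the 20 chromosomes, and the share lower between 0.421% and 1.28%. Identifiers rise along a chromosome, and 41 of the 279 higher genes (14.7%) had another of the 279 within 5 identifiers, as had 4.93% of all tested genes. For the lower genes it was 39 of 236 (16.5%), against 4.15% of all tested genes. On chromosome 10, Glyma.10G206900, Glyma.10G207000 and Glyma.10G207100 adjoin. Glyma.10G206900 stood at 2.96 RPKM in A004A and 3.64 RPKM in A005B, against 0.155 RPKM in null and 0.299 RPKM in B010C, and Glyma.10G207100 at 1.90 RPKM in A004A and 1.67 RPKM in A005B, against 0.140 RPKM in null and 0.0696 RPKM in B010C.

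On chromosome 7, Glyma.07G103700, Glyma.07G103800 and Glyma.07G103900 adjoin and were lower in the dried high lines. Glyma.07G103700 stood at 0.0572 RPKM in A004A and 0.0595 RPKM in A005B, against 1.97 RPKM in null and 3.48 RPKM in B010C. Glyma.07G103900 stood at 0.487 RPKM in A004A and 1.69 RPKM in A005B, against 5.22 RPKM in null and 6.78 RPKM in B010C (limma, adjusted p = 0.0278). All 3 lay under 1 RPKM in every watered column. On chromosome 13, Glyma.13G257700, Glyma.13G257900 and Glyma.13G258100 lie within 5 identifiers and were higher in the dried high lines, with Glyma.13G257700 at 3.20 RPKM in A004A and 6.20 RPKM in A005B, against 0.0375 RPKM in null and 0.341 RPKM in B010C. In watered leaves these 3 genes stood at 7.87 RPKM or more in A004A and at 0.182 RPKM or less in A005B.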

How the data were processed

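Leaf RNA of 4 soybean lines, watered or dried, was sequenced (Illumina kit, per the labels' protocols). The authors deposited RPKM in 8 columns, 1 per line and treatment, although 2 samples are listed for each; how the authors combined these was not stated, and depth is unknown. TopHat is named per the submitters' processing notes. Not given in the sources used here were the counting program, genome build and annotation. Columns were tied to groups by name, and 0 were left over. Of the identifiers, 0 matched the RefSeq table, so planned gene lists and promoter motifs were left out.

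Genes with at least 1 RPKM in 2 of the 4 dried columns were used as log2(RPKM + 1) in limma 3.58.1 (R 4.3.3; trended empirical Bayes, two-sided, Benjamini-Hochberg adjustment, threshold 0.05), with 2 columns a side. The fit was tested on simulated data. Named genes were, per direction, the 12 with the widest gap between the sides among those at 5 RPKM or more in both columns of the higher side. Members and rules were chosen with earlier results of these data known. Nothing says that samples came from separate plants, so p-values measure the spread between these columns.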

Additional observations from a re-analysis of the deposited data

Results flagged for a closer look

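In 3 named genes the sides separated in one direction when dried and in the other when watered, with no overlap in either, and the difference between the treatments was not tested. Glyma.10G294600, listed at 0 in both dried high lines, had 49.7 RPKM in watered A004A and 53.0 RPKM in watered A005B, against 20.3 RPKM in watered null and 20.03 RPKM in watered B010C (log2 difference of high minus low lines 1.304). Glyma.12G147800, lower in both dried high lines, had 96.0 RPKM in watered A004A and 282 RPKM in watered A005B, against 92.1 RPKM in watered null and 43.3 RPKM in watered B010C (1.369). Glyma.10G229400 had 6.21 RPKM in watered A004A and 6.98 RPKM in watered A005B, against 5.30 RPKM in watered null and 4.64 RPKM in watered B010C (0.348). Over the 236 lower genes, the watered sides separated without overlap in the opposite direction in 32 and in the same direction in 56. Over the 279 higher genes, these numbers were 17 and 33. In all tested genes the watered high lines lay without overlap above the low lines in 17.4% and below them in 17.9%. Separation in the opposite direction was thus less frequent in both sets than in all tested genes. Separation in the same direction was more frequent in the 236 lower genes and less frequent in the 279 higher ones.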

How the results depend on the processing

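As deposited, limma called 329 higher and 299 lower genes. With a mean of at least 5 RPKM, which leaves 17711 genes, there were 92 and 133 calls, and without a filter 0 and 0 (7508 genes at an unadjusted p under 0.05). Lower calls numbered 190 after median-of-ratios scaling, 143 after quantile normalization and 532 with all 8 columns in the fit. Leaving out 1 line at a time gave 296 to 718 higher and 239 to 1059 lower calls, where the lone line of a side was assumed to vary as the other side does. Of genes at least 2-fold apart, 279 were higher and 236 lower. There were 571 and 413 with a pseudocount of 0.1, 109 higher with a mean of at least 5 RPKM, and 354 to 605 higher and 367 to 941 lower without 1 line. The median of all tested genes, -0.126, became 0.00427 after quantile normalization. The share of higher genes with a watered difference above 0, 71.0%, was 64.2% with a mean of at least 5 RPKM and 26.7% to 75.5% without 1 line. In 2 alternatives chosen after seeing the data it was 81.4% without the watered A005B and null columns and 21.9% with these columns only. For lower genes the share below 0, 61.4%, was 47.0% without those columns and 44.3% to 67.5% without 1 line. Each share is over the genes at least 2-fold apart when dried under that setting, so the gene sets differ. The cause of these shifts was not tested. The 24 named genes kept their direction in 264 of 264 values, which their choice by a wide gap in these same columns made nearly certain. The limma call was lost in 24 of them without a filter and in 13 with all 8 columns in the fit. It was lost in 3 with median-of-ratios factors, in 3 after quantile normalization and in 2 with a pseudocount of 0.1. For the 10 higher and 3 lower named genes that passed the filter through 1 side only, a kept call carries no weight. Gene lists, promoter motifs and organ markers were not run, since no identifier had a name. No paired analysis was possible because the columns carry no replicate numbers and the sides hold different lines. Depth is unknown, so no limit from counting error can be given for low values.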
